A study of Mus musculus with 4 samples.

Results

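RNA of 10 subunits of the SWI/SNF chromatin remodeler was measured in mouse C3H10T1/2 cells that carried a mutant or a wild-type histone H3.3. The genes were chosen by symbol (Smarca2, Smarca4, Smarcb1, Smarcc1, Smarcc2, Smarcd1, Smarcd2, Smarcd3, Smarce1 and Arid1a), and all 10 had a row among the 20325 gene symbols of the deposited matrix. C3H10T1/2 is a multipotent mesenchymal line derived from C3H mouse embryos. The K36M group (2 libraries) stably expressed FLAG-HA-tagged H3.3 with lysine 36 replaced by methionine, and the WT group (2 libraries) stably expressed FLAG-HA-tagged wild-type H3.3, so the tag and the stable transgene are common to both groups. Both groups were grown in serum-supplemented DMEM and fall in the same labelled passage range. No source used here says whether each line is 1 clone or whether the libraries of a group came from separate cultures. The p-values therefore measure the spread between libraries alone, and that spread may be technical.

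SWI/SNF complexes use ATP to slide and evict nucleosomes and open promoters and enhancers. They are built in 3 main forms, canonical BAF, PBAF and non-canonical BAF. These share an ATPase (Smarca4, also called BRG1, or Smarca2, also called BRM) and some core subunits, and differ in others. The core members Smarcb1 and Smarce1 are among those listed for canonical BAF and PBAF only. Several positions are filled by 1 of a few paralogs, and the choice changes with cell type. In soft tissue cancer the complex is well known, through loss of SMARCB1 in rhabdoid tumours and epithelioid sarcoma and through the SS18 fusion of synovial sarcoma. The K36M substitution blocks enzymes that methylate lysine 36 of histone H3, and the comparison asks which genes differ when mesenchymal cells carry it.

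Library totals were 56041798 and 34022137 expected counts in K36M replicates 1 and 2, and 25322433 and 23343297 in WT replicates 1 and 2. Levels are given in CPM (counts scaled to a fixed library total, with TMM factors), and differences as log2 fold changes of K36M over WT from edgeR's quasi-likelihood test, called at an adjusted p under 0.05 over all 13162 genes tested. All 10 mesenchymal markers examined were detected in all 4 libraries (4 called higher, 5 lower), with summed levels of 24900 and 23200 CPM in K36M and 31300 and 30900 CPM in WT. Of the markers of other cell types, some were at or near 0 and others were not. Epcam, Myod1, Myog and Hbb-b1 had 0 counts in all libraries, and Ptprc, Pecam1, Snap25 and Sox2 did not exceed 0.201 CPM. The epithelial cadherin Cdh1 had 22.3 and 24.1 CPM in K36M against 5.89 and 5.56 CPM in WT, the neural markers Nes 41.2 and 44.4 CPM in K36M against 16.6 and 15.95 CPM in WT and Tubb3 25.6 and 24.7 CPM in K36M against 13.4 and 12.8 CPM in WT. The muscle actin Acta1 had 11.1 and 10.2 CPM in K36M against 4.69 and 4.79 CPM in WT, and the endothelial receptor Tek 4.88 and 4.58 CPM in K36M against 28.9 and 27.3 CPM in WT. Other markers of these lists were called the other way. Epithelial Krt14 had 0.770 and 0.713 CPM in K36M against 5.95 and 5.25 CPM in WT. Muscle Tnnt2 had 3.37 and 2.89 CPM in K36M against 6.86 and 6.60 CPM in WT. Endothelial Cdh5 had 2.25 and 1.87 CPM in K36M against 0.847 and 0.434 CPM in WT. Some summed marker levels differed, among them 35.7 and 33.9 CPM in K36M against 3.71 and 3.86 CPM in WT for 7 blood markers (3 called higher, 1 lower; Hba-a1 gave most of the K36M sum), and 109 and 113 CPM in K36M against 196 and 197 CPM in WT for 8 neural markers (4 higher, 1 lower; Map2 gave most of the WT sum). Summed levels of 6 epithelial markers (2 higher, 1 lower) were 24.3 and 25.8 CPM in K36M and 12.1 and 11 CPM in WT. Those of 4 endothelial markers (1 higher, 1 lower) were 7.25 and 6.71 CPM in K36M and 29.8 and 27.8 CPM in WT, and those of 6 muscle markers (1 higher, 1 lower) 15.3 and 13.5 CPM in K36M and 12 and 11.7 CPM in WT. Of all genes tested, 75.6% were called in either direction. The part of these markers in the SWI/SNF values was not tested.

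Among the SWI/SNF members, the ATPase gene Smarca2 fell 1.41-fold and the scaffold gene Smarcc1 rose 1.198-fold in K36M cells. Smarcb1 fell 1.09-fold and Smarcd2 1.07-fold, and the other 6 members were not called. Of the 10 members 1 was called higher and 3 lower, while 38.5% of all genes tested were called higher and 37.1% lower (75.6% in either direction). The median absolute log2 fold change was 0.08 over the members and 0.38 over all genes tested. No member changed by 1.5-fold, a size that 34.8% of all genes tested reached. The genes tested were not matched to the members for level. Every member was above a mean of 5 CPM, which 10262 genes reached, while 13162 were tested. The K36M and WT libraries did not overlap in CPM for 6 of the 10 members, against 87.1% of genes tested. Summed over the 10 members, the level was 1340 and 1286 CPM in K36M libraries and 1368 and 1396 CPM in WT libraries. In bulk RNA, fewer cells that express a gene and less RNA per cell cannot be told apart.

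**Figure D1:**
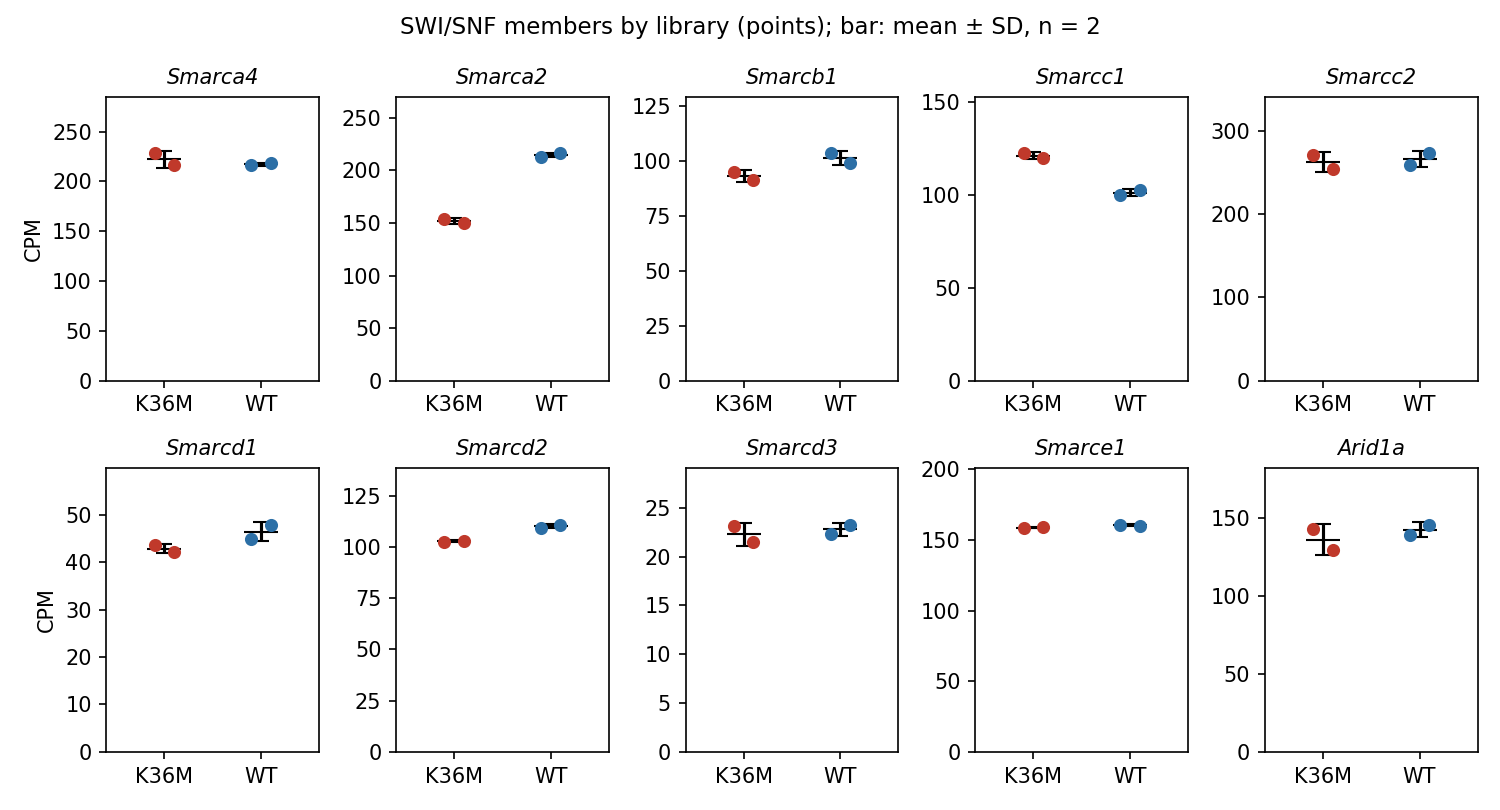
Level of each SWI/SNF member in CPM in each library (points; K36M red, WT blue), with the mean and SD of the 2 libraries of a group. Smarca2 lies at 154 and 150.1 CPM in K36M and at 213 and 216 CPM in WT, Smarcc1 is higher in both K36M libraries, and for Smarca4, Smarcc2, Smarcd3 and Arid1a the groups overlap.

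The sequences just upstream of the starts of the ATPase paralogs and of the Smarcc paralogs are shown because in each pair 1 gene was called and the other was not. They are the 250 bases before the RefSeq start on build GRCm38.p6, matched by symbol, and the deposited counts were made on another build (mm9). Capitals mark matches on either strand to the GC box (GGGCGG), the NRF1 core (TGCGCA), the ETS core (CCGGAAG), the CCAAT box (CCAAT), the E-box (CACGTG) or the CRE (TGACGTCA).
Smarca2 (chr19:26604910-26605159, plus strand): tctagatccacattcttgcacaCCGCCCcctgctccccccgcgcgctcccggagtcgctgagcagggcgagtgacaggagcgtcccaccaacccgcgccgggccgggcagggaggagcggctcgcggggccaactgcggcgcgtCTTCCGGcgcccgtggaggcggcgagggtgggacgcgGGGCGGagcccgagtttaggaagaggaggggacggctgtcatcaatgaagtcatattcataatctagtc
Smarca4 (chr9:21615919-21616168, plus strand): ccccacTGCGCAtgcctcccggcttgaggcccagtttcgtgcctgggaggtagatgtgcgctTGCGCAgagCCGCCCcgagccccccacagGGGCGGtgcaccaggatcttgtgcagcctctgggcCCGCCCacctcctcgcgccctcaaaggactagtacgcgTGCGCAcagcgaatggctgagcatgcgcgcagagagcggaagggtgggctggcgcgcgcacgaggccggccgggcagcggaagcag
Smarcc1 (chr9:110131774-110132023, plus strand): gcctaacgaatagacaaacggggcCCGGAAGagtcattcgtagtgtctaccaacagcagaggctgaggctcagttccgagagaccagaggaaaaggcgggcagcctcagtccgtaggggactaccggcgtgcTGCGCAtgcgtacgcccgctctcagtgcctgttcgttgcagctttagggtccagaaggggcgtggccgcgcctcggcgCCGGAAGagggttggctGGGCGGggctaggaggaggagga
Smarcc2 (chr10:128458986-128459235, plus strand): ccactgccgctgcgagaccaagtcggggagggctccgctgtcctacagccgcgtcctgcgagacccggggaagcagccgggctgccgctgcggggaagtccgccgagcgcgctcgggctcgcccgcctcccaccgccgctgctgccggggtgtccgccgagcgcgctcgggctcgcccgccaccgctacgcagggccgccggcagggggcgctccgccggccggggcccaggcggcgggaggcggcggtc

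The Smarca2 window held 2 GC boxes and 1 ETS core, and the Smarca4 window 3 GC boxes and 3 NRF1 cores. In the Smarcc1 window there were 1 GC box, 1 NRF1 core and 2 ETS cores, and in the Smarcc2 window none of the 6 motifs. GC boxes occurred in 32.7% of all 32851 windows of that length in the RefSeq table, NRF1 cores in 6.43%, ETS cores in 6.91%, CCAAT boxes in 33.8%, E-boxes in 6.02% and CREs in 1.55%. Of the 10 members 9 matched the table, with 10 windows because Arid1a has 2 starts, and Smarce1 had no entry. GC boxes were found in 9 of these 10 windows, and CCAAT boxes, E-boxes and CREs in 0. The share of G and C in these windows ran from 56.4% (Smarcd2) to 81.6% (1 of the Arid1a windows), where the median window had 52.4%. The part of base composition in the motif counts was not tested. The 4 windows printed were rich in CpG, with 28 (Smarca2), 25 (Smarca4), 21 (Smarcc1) and 40 (Smarcc2) CpG dinucleotides, where the median window of the table had 6. Smarcd2 was the exception among members, with 4 CpG. A match is a description of letters and not a site of binding.

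The ATPase subunits are the motors of the complex, and only 1 of them fits in each complex. Smarca2 had 154 and 150.1 CPM in the K36M libraries, against 213 and 216 CPM in the WT libraries. Both K36M libraries were below both WT libraries, and the group means were 152 ± 2.55 CPM in K36M and 215 ± 2.22 CPM in WT (SD, n = 2 each). The log2 fold change was -0.50 (SE 0.04, 95% interval -0.58 to -0.42, edgeR adjusted p = 1.08e-09), a size at or above that of 59.9% of genes tested. Smarca4 had 228 and 216 CPM in the K36M libraries, against 216 and 218 CPM in the WT libraries. These libraries overlapped, and the log2 fold change of 0.03 had an interval of -0.05 to 0.12 (edgeR adjusted p = 0.443).

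The ratio of the ATPase genes can be taken within each library, where library scaling cancels. Smarca2 made up 40.3% and 41.0% of the counts of the pair in K36M libraries, against 49.6% and 49.8% in WT libraries. On the log2 scale the ratio of Smarca2 to Smarca4 counts was -0.57 and -0.53 in K36M and -0.02 and -0.01 in WT, so the ratio was 1.45-fold lower in K36M. The libraries were separated by group. The group means differed by 0.53 on the log2 scale, where the SD within groups was 0.03 in K36M and 0.01 in WT. An exact permutation test over libraries gave a two-sided p of 0.333, which is the smallest that 2 libraries against 2 allow, and 0.458 after adjustment over the 11 ratios computed. Counts also depend on transcript length, so these shares are not shares of molecules.

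Smarcc1 (BAF155) and Smarcc2 (BAF170) form the scaffold on which the core is assembled. Smarcc1 had 122 and 119.7 CPM in the K36M libraries, against 99.8 and 103 CPM in the WT libraries. All K36M values were above all WT values, with means of 121 ± 1.90 CPM in K36M and 101 ± 1.90 CPM in WT (SD, n = 2 each). The log2 fold change was 0.26 (SE 0.04, 95% interval 0.17 to 0.35, edgeR adjusted p = 2.30e-05). Smarcc2, which is more abundant, had 271 and 254 CPM in K36M libraries and 259 and 273 CPM in WT libraries, so the groups overlapped. Its log2 fold change was -0.02 (95% interval -0.10 to 0.07, edgeR adjusted p = 0.732), and it was called lower under the authors' factors (adjusted p = 0.0278). Smarcc1 gave 31.1% and 32.0% of the counts of this pair in K36M, against 27.8% and 27.3% in WT. The log2 ratio of Smarcc2 to Smarcc1 was 0.28 lower in K36M (exact permutation p = 0.333, the smallest possible), with no overlap of the libraries.

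Smarcb1 (SNF5), which contacts the nucleosome's acidic patch, had 94.9 and 91.3 CPM in the K36M libraries, against 103 and 99.0 CPM in the WT libraries. The K36M libraries were lower without overlap, by 1.09-fold (log2 fold change -0.12, SE 0.04, edgeR adjusted p = 0.0228). The call was lost without K36M replicate 2 (adjusted p = 0.0728), without WT replicate 1 (0.221), under total-count scaling (0.171), under upper quartile scaling (0.127), at a mean of 5 CPM (0.0627) and with the DESeq2 Wald test (0.0793), always with K36M lower. Smarce1 (BAF57), a subunit with an HMG box that binds DNA, had 158 and 159 CPM in K36M and 161 and 159.9 CPM in WT. Its groups did not overlap, yet they lay about 1 percent apart (log2 fold change -0.02, 95% interval -0.10 to 0.07, edgeR adjusted p = 0.719). Under the authors' factors Smarce1 was called lower (log2 fold change -0.10, edgeR adjusted p = 0.0266).

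The Smarcd genes (BAF60a, b and c) encode alternative subunits that link the complex to transcription factors. Smarcd2, known for its role in granulocyte formation, had 102 and 103 CPM in K36M libraries, against 109 and 111 CPM in WT libraries. It fell 1.07-fold without overlap (log2 fold change -0.10, SE 0.04, edgeR adjusted p = 0.0394). This call was lost without K36M replicate 1 (adjusted p = 0.0712), without WT replicate 1 (0.118) and without WT replicate 2 (0.2), with DESeq2 size factors (0.0554), with upper quartile (0.217) and total-count (0.307) scaling, at a mean of 5 CPM (0.109), with the DESeq2 Wald test (0.127) and after thinning to the smallest library (0.0598).

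Smarcd1 had 43.6 and 42.2 CPM in K36M and 45.0 and 47.9 CPM in WT. Its log2 fold change of -0.11 lay just beyond the threshold (edgeR adjusted p = 0.0519), and it passed without K36M replicate 1 (0.0208), without WT replicate 1 (0.0475), when no filter on low counts was used (0.0416) and under the authors' factors (0.00144). Smarcd3, which has a known part in heart and skeletal muscle formation, had 23.1 and 21.5 CPM in K36M and 22.3 and 23.3 CPM in WT, with overlap (log2 fold change -0.03, 95% interval -0.17 to 0.12, edgeR adjusted p = 0.736). In GENCODE M21, 48.2% of the exon bases of Smarcd3 are shared with Chpf2 on the opposite strand, and no source used here says whether counting used strand, so its level is uncertain. For Smarcd1 the share with the opposite-strand gene Gm17349 was 7.13%. The shares of the 3 Smarcd genes in their summed counts were much alike: Smarcd2 gave 60.6% and 61.8% in K36M and 61.9% and 60.9% in WT, Smarcd1 25.8% and 25.3% in K36M and 25.5% and 26.3% in WT, and Smarcd3 13.7% and 12.9% in K36M and 12.6% and 12.8% in WT. The log2 ratio of Smarcd1 to Smarcd2 differed by -0.02 and that of Smarcd3 to Smarcd2 by 0.07, both with overlapping libraries (exact permutation p = 0.667), and that of Smarcd3 to Smarcd1 by 0.08 without overlap (0.333). Without K36M replicate 1 the last of these was 0.05.

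Arid1a (BAF250a) is the large DNA-binding subunit that defines canonical BAF and is often mutated in human cancer. It had 143 and 129 CPM in K36M libraries, against 139 and 146 CPM in WT libraries, and the groups overlapped (log2 fold change -0.06, 95% interval -0.17 to 0.04, edgeR adjusted p = 0.246). The low K36M value is that of replicate 2, and Arid1a was called lower without K36M replicate 1 (adjusted p = 0.00363) and with the authors' factors (0.00694). Its paralog Arid1b had 93.4 and 82.4 CPM in K36M and 93.5 and 98.2 CPM in WT (log2 fold change -0.12, edgeR adjusted p = 0.0536), and was past the threshold without K36M replicate 1 (3.5e-05), without WT replicate 1 (0.0443), when low counts were not filtered (0.0145) and under the authors' factors (0.00126). The log2 ratio of Arid1b to Arid1a was 0.06 lower in K36M than in WT (difference -0.06, exact permutation p = 0.333).

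**Figure D2:**
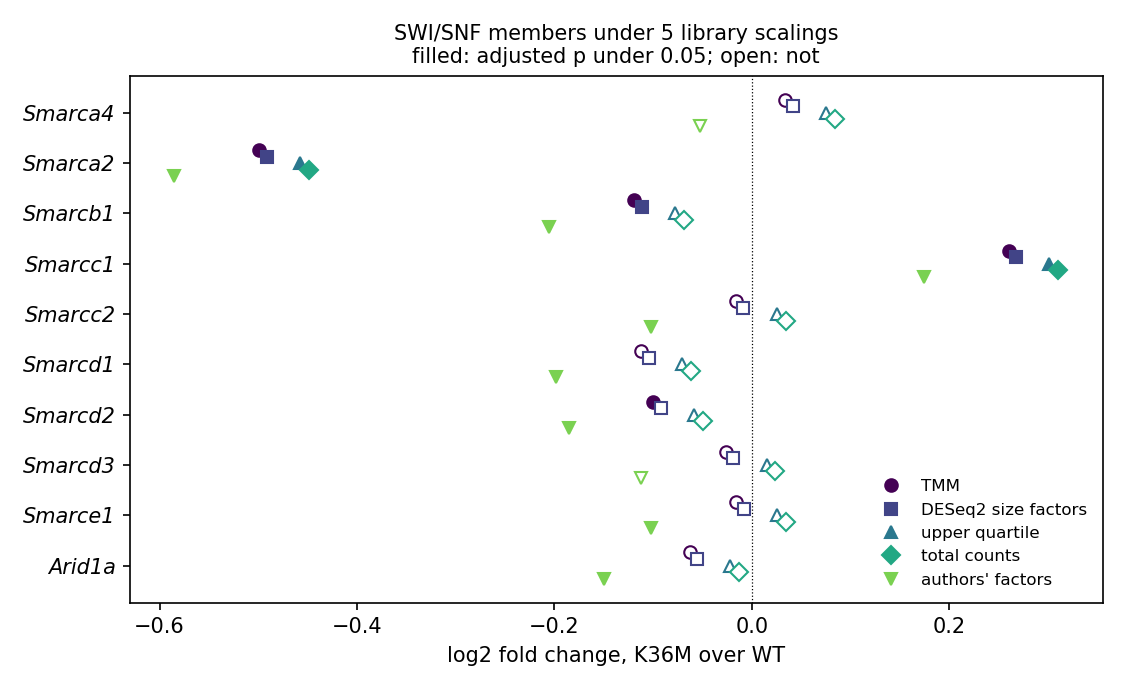
Log2 fold change of each SWI/SNF member, K36M over WT, under 5 ways of scaling the libraries (marker shapes; filled where the adjusted p is under 0.05). Smarca2 is called lower and Smarcc1 called higher under all 5, while the calls of the other 8 members change with the scaling or are absent.

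Which of the small changes are called depends on how libraries are scaled. Smarca2 (log2 fold change -0.59 to -0.45) and Smarcc1 (0.17 to 0.31) kept their calls under all 14 alternatives run. With total counts as the scale 1 member was higher and 1 lower, whereas with the authors' factors 1 was higher and 7 lower, against 1 and 3 with TMM. The calls over all 13162 genes tested moved as well. They were 5542 higher and 4367 lower with total counts, 4360 and 5709 with the authors' factors, and 5070 and 4879 with TMM. The authors' factors shifted log2 fold changes by a median of -0.09 over all genes, and total counts by 0.05, about as much as the values of Smarcb1, Smarcd1, Smarcd2 and Arid1a. Smarca4, Smarcc2, Smarcd3 and Smarce1 changed sign between scalings.

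To set the members beside each other, CPM were divided by the length of 1 principal transcript per gene in GENCODE M21 (build GRCm38), which the authors' own annotation need not share. On this scale of CPM per kilobase, Smarcc2 (57.9 ± 2.62), Smarcb1 (56.1 ± 1.52) and Smarce1 (54.4 ± 0.111) stood highest in K36M cells (SD, n = 2). The same 3 genes led in WT cells, with 58.6 ± 2.14 for Smarcc2, 61.0 ± 1.89 for Smarcb1 and 55.0 ± 0.221 for Smarce1, and in each group the libraries of Smarcc2 and Smarcb1 overlapped. Smarcd2 followed with 37.4 ± 0.153 in K36M and 40.1 ± 0.407 in WT. Of the ATPases, Smarca4 stood at 35.0 ± 1.31 and Smarca2 at 25.6 ± 0.431 in K36M, against 34.2 ± 0.229 for Smarca4 and 36.3 ± 0.375 for Smarca2 in WT. The order in WT depends on the lengths taken (6354 bases for Smarca4 and 5921 for Smarca2), since by counts Smarca2 was below Smarca4 in both groups. In the lower range, Smarcc1 stood at 21.2 ± 0.333 in K36M and 17.7 ± 0.332 in WT, and Arid1a at 16.6 ± 1.19 in K36M and 17.4 ± 0.566 in WT, where Smarcc1 and Arid1a overlapped in WT but not in K36M. Smarcd1 (12.97 ± 0.307 in K36M, 14.1 ± 0.63 in WT) and Smarcd3 (12.8 ± 0.671 in K36M, 13.1 ± 0.396 in WT) were lowest, and overlapped each other in K36M.

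The other subunits of the complexes were read from the same fit. Among them the PBAF subunits Brd7 and Phf10, the Bcl7c gene and Bcl11b rose 1.34- to 1.36-fold, and 5 others fell by 1.13- to 1.19-fold. Of 21 such genes listed, 20 had a row and 17 were tested, and of these 6 were called higher and 5 lower, where 38.5% of all genes tested were higher and 37.1% lower. The median log2 fold change was -0.07 (0.00 over all genes tested) and the median absolute one 0.18 (0.38 over all genes tested). With the authors' factors the counts were 4 higher and 9 lower, where 4360 of all 13162 genes tested were higher and 5709 lower. None of the 17 changed by 1.5-fold, against 34.8% of all genes tested, which were not matched for level. Bicral had no row under its symbol or its synonyms in the RefSeq table and was not analysed here.

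PBAF is set apart by Pbrm1, Arid2, Brd7 and Phf10. Brd7, which carries an acetyl-lysine-binding bromodomain, had 142 and 146 CPM in K36M libraries, against 109 and 105 CPM in WT libraries. It rose 1.34-fold with no overlap (log2 fold change 0.43, SE 0.04, edgeR adjusted p = 4.08e-08). Phf10 (BAF45a) had 112 and 113 CPM in K36M, against 85.1 and 80.9 CPM in WT, and rose 1.36-fold (log2 fold change 0.44, SE 0.04, edgeR adjusted p = 5.58e-08). In GENCODE M21, 9.56% of Phf10 exon bases are shared with 1600012H06Rik on the opposite strand. Pbrm1, the polybromo subunit with several bromodomains, went the other way and fell 1.14-fold, with 151 and 157 CPM in K36M against 176 and 176 CPM in WT (log2 fold change -0.19, edgeR adjusted p = 0.000265). Arid2, the PBAF scaffold, had 97.9 and 97.8 CPM in K36M and 97.2 and 98.7 CPM in WT (edgeR adjusted p = 0.989, 95% interval of the log2 fold change -0.09 to 0.09), and its sign changed with the scaling.

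Dpf2 (BAF45d) takes in canonical BAF the kind of place that Phf10 takes in PBAF. It had 89.5 and 86.8 CPM in K36M and 82.9 and 81.7 CPM in WT, called higher by 1.07-fold (edgeR adjusted p = 0.0488). The call was lost in 8 of the 14 alternatives, with the replicate number as a block among them (adjusted p = 0.0514). The log2 ratio of Dpf2 to Phf10 was -0.32 and -0.39 in K36M and -0.04 and 0.01 in WT, a difference of -0.34 with no overlap (exact permutation p = 0.333, the smallest possible). Of the subunits of non-canonical BAF, Brd9 fell 1.14-fold, with 56.8 and 57.1 CPM in K36M against 62.4 and 67.7 CPM in WT (edgeR adjusted p = 0.00197, and 0.0715 without WT replicate 2). Bicra, listed under its older symbol Gltscr1, fell 1.13-fold, with 20.0 and 17.7 CPM in K36M against 20.8 and 22.2 CPM in WT (edgeR adjusted p = 0.0409). Its call was lost in 7 of the 14 alternatives, without K36M replicate 2 (0.238), without WT replicate 2 (0.186) and under the replicate block (0.0571) among them.

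The Bcl7 proteins are small subunits of the ATPase module, and their genes did not move together. Bcl7c had 31.1 and 26.3 CPM in K36M, against 21.2 and 21.8 CPM in WT, and rose 1.35-fold (log2 fold change 0.43, SE 0.08, edgeR adjusted p = 5.23e-05). Bcl7b had 20.8 and 17.8 CPM in K36M, against 22.3 and 24.2 CPM in WT, and fell 1.19-fold (log2 fold change -0.25, SE 0.08, edgeR adjusted p = 0.0075, and 0.0591 without WT replicate 2). Bcl7a, at 12.7 and 12.3 CPM in K36M and 13.4 and 14.1 CPM in WT, was not called (edgeR adjusted p = 0.141), but was called lower with the authors' factors (0.0207) and after thinning to the smallest library (0.0315). The log2 ratio of Bcl7c to Bcl7b counts was 0.58 and 0.56 in K36M and -0.07 and -0.15 in WT, so it was 1.604-fold higher in K36M. Among the 11 ratios this difference of 0.68 was the largest, followed by that of Smarca2 to Smarca4. The exact permutation p was again 0.333. The ratio of Bcl7a to Bcl7b differed by 0.13 without overlap (exact permutation p = 0.333), and by 0.04 without K36M replicate 2 and 0.22 without K36M replicate 1.

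**Figure D3:**
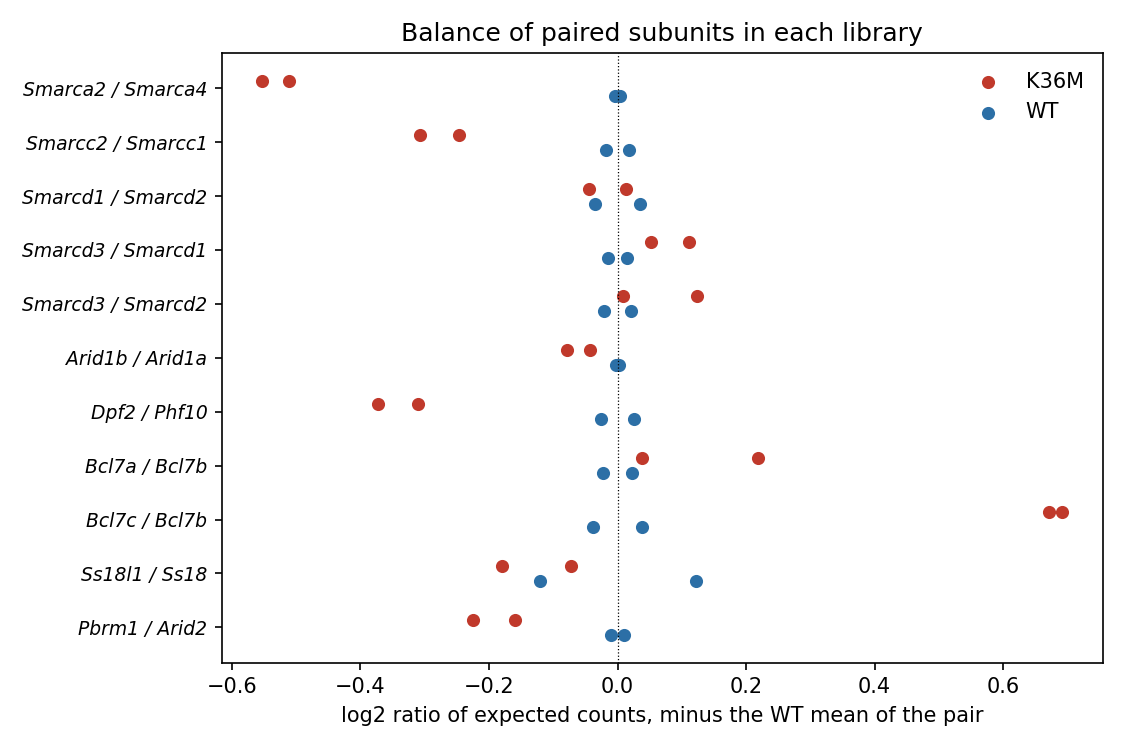
Log2 ratio of the expected counts of 2 subunits in each library (K36M red, WT blue), with the WT mean of the pair set to 0. The 2 subunits take 1 kind of place in the complex, except Pbrm1 and Arid2, which both belong to PBAF. Values in brackets are differences of group means. K36M libraries lie apart from WT for Smarca2 / Smarca4 (-0.53), Smarcc2 / Smarcc1 (-0.28), Dpf2 / Phf10 (-0.34) and Bcl7c / Bcl7b (0.68). They also lie apart, by less, for Smarcd3 / Smarcd1 (0.08), Arid1b / Arid1a (-0.06), Bcl7a / Bcl7b (0.13) and Pbrm1 / Arid2 (-0.19). They overlap WT for Smarcd1 / Smarcd2, Smarcd3 / Smarcd2 and Ss18l1 / Ss18.

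Some subunits are known for nerve or blood cells and were scarce here. Actl6b, the actin-related subunit of neurons, had 0 counts in all 4 libraries, which allows a level of up to 0.0328 CPM over the K36M libraries and 0.0628 CPM over the WT libraries at 3 counts (counting error only). Dpf3 had 12 and 13 counts in K36M and 1 and 1 in WT, a ratio of 6.53 with a 95% Clopper-Pearson interval of 1.63 to 56.9 for counting error, and was too low to enter the test. Bcl11a had 4 and 2 counts in K36M and 0 in both WT libraries, and was not tested either. Dpf1, also known from neurons, had 2.54 and 2.33 CPM in K36M and 2.28 and 2.09 CPM in WT (edgeR adjusted p = 0.414). Bcl11b, a zinc finger subunit known from T cells and neurons, had 4.95 and 4.78 CPM in K36M against 3.55 and 3.59 CPM in WT, and rose 1.36-fold (edgeR adjusted p = 0.00423, and 0.0619 with the DESeq2 Wald test).

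Ss18, the subunit fused in synovial sarcoma, had 106 and 99.8 CPM in K36M and 108 and 108 CPM in WT (log2 fold change -0.07, edgeR adjusted p = 0.183), and was past the threshold without K36M replicate 1 (0.0307) and under the authors' factors (0.00402). Its neuronal paralog Ss18l1 had 8.06 and 8.17 CPM in K36M and 8.55 and 10.1 CPM in WT (edgeR adjusted p = 0.0824), past the threshold without WT replicate 1 (0.0189) and under the authors' factors (0.0154), and the log2 ratio of Ss18l1 to Ss18 differed by -0.13 with overlap (exact permutation p = 0.667). Actl6a and Actb, the only other genes of the list that were called, are named outside the rule for named genes, after their values were seen. Actl6a (BAF53a), the actin-related subunit of dividing cells, fell 1.13-fold, with 48.3 and 44.0 CPM in K36M against 52.8 and 51.9 CPM in WT (edgeR adjusted p = 0.0052). In GENCODE M21, 11.6% of its exon bases are shared with Mrpl47 on the opposite strand. Actb, the actin that is also a subunit, was called 1.07-fold higher (edgeR adjusted p = 0.0337), a call lost without WT replicate 1 (0.246) without WT replicate 2 (0.163), under the replicate block (0.0592) and with the authors' factors (0.844), and its reads can be shared with processed pseudogenes. The log2 ratio of Pbrm1 to Arid2, which both belong to PBAF, was 0.65 on average in K36M and 0.85 in WT. The difference was -0.19 with no overlap (exact permutation p = 0.333).

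**Figure D4:**
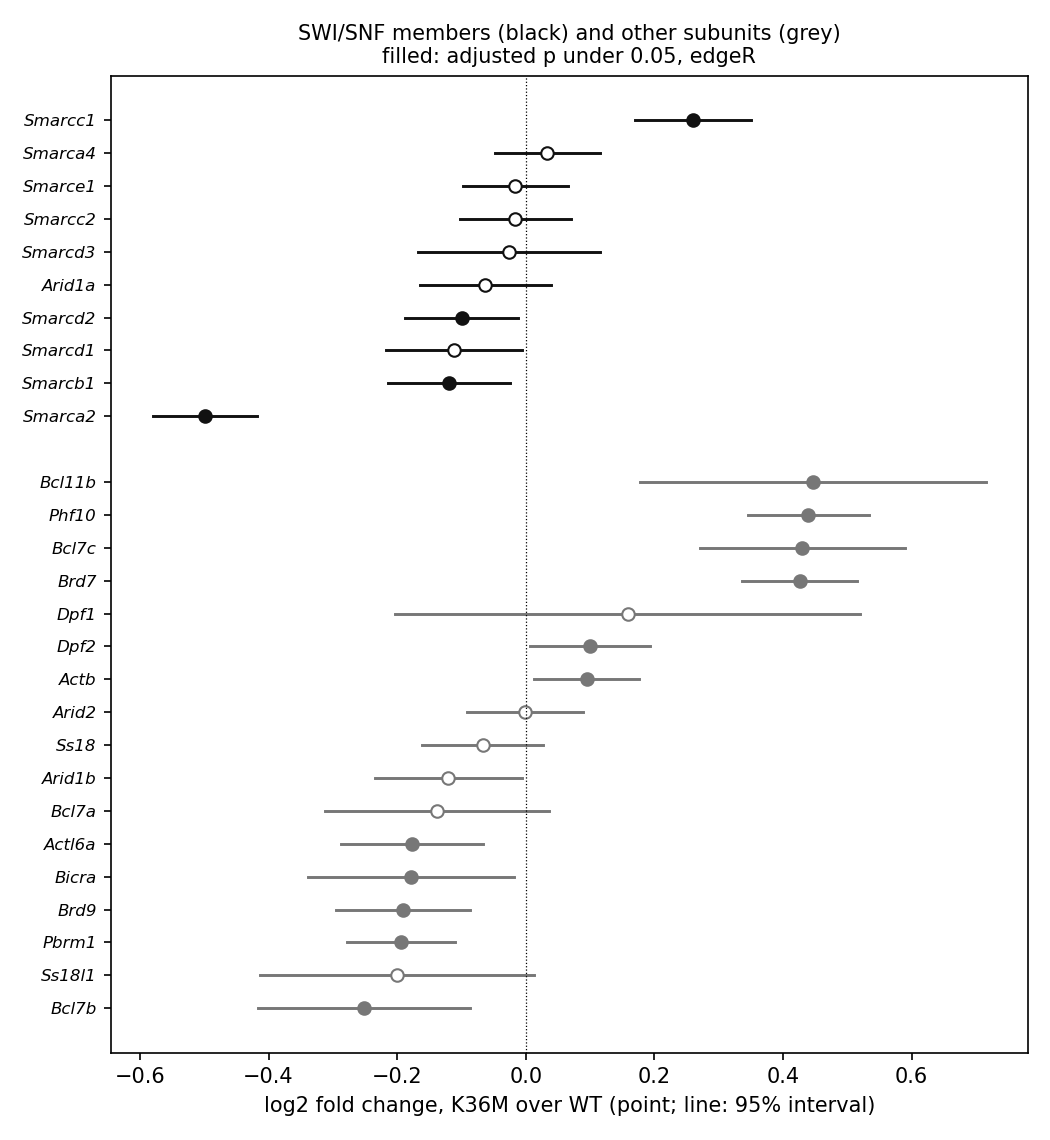
Log2 fold change of K36M over WT with its 95% interval for the 10 SWI/SNF members (black) and the 17 other subunits tested (grey), filled where the edgeR adjusted p is under 0.05. Smarca2 (-0.50) stands apart at the low end, and Bcl11b, Phf10, Bcl7c and Brd7 (0.43 to 0.45) at the high end.

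None of the 10 members was among the genes of the authors' deposited table of changes over 10-fold. Genes of ATPases outside SWI/SNF but of the same wider family (Snf2) had a median absolute log2 fold change of 0.34 over 26 tested genes. Of these, 7 were past 1.5-fold (26.9%). All genes tested had 0.38 and 34.8%, and the SWI/SNF members 0.08 and 0 of 10. These sets were not matched for level.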

How the data were processed

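RNA-seq libraries (K36M n = 2, WT n = 2) were grouped by their titles. The authors deposited a matrix of RSEM expected counts per gene symbol, used for EBSeq per the file headers; Bowtie 1.0.0, RSEM 1.2.12 and build mm9 are named in the submitters' processing notes. A second table the authors deposited gives log2 values and a linear fold (ratio, K36M over WT); its log2 values equal log2 of expected count times 1 factor per library plus 1, to within 5e-09, and those factors served as an alternative scaling.

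Expected counts were rounded and tested with edgeR 4.0.16 (R 4.3.3): filterByExpr, TMM, quasi-likelihood F test of group, Benjamini-Hochberg over 13162 genes, 2 residual and 15.7 prior degrees of freedom. The test was also run on simulated counts of independent libraries, with the same spread for every gene. Such a run cannot show whether the libraries of a group are technical replicates. DESeq2 1.42.0 and limma-voom 3.58.1 were alternatives. Mean chi-square per gene between libraries of a group was 7.04 (K36M) and 3.56 (WT), beyond counting noise. The columns of a group therefore differ by more than a random split of 1 set of reads. This measure cannot show whether 1 library was sequenced again, since differences between runs would also add to it. Reads carry no molecular identifiers, so floors and counting intervals cover counting error only.

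The members and gene lists were chosen with earlier results of these data known. Named were all members and the 8 largest called changes of each other list. Also named were all genes of those lists not called or not tested, and genes of the pairs whose ratio was taken.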

Additional observations from a re-analysis of the deposited data

How the results depend on the processing

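Over the 53 tested genes of the 3 lists and the 14 alternatives, 739 gene values were computed: 639 kept their direction and side of the threshold, 40 lost the call with the same direction, 29 gained one, and 31, none of a called gene, changed sign. Members called lower numbered 3, but 1 with upper quartile scaling, 1 with total counts, 1 at a mean of 5 CPM, 1 with the DESeq2 Wald test and 7 with the authors' factors. Over all 13162 genes tested, 4879 were called lower. This became 4458 with upper quartile scaling, 4367 with total counts, 4123 with the DESeq2 Wald test and 5709 with the authors' factors. At a mean of 5 CPM it was 3959 of 10262. Other subunits called lower numbered 5, but 9 with the authors' factors and 2 to 7 when 1 library was left out (2 without WT replicate 2). With 1 library left out, the lone library of its group is assumed to vary like the other group.

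Sign changes of the log2 fold change, all near 0, were as follows. With the authors' factors they were -0.0522 for Smarca4, -0.0856 for Chd2 and -0.0147 for Chd4. With upper quartile scaling they were 0.0251 for Smarcc2, 0.015 for Smarcd3, 0.0252 for Smarce1 and 0.0405 for Arid2, and with total counts 0.0342 for Smarcc2, 0.0239 for Smarcd3, 0.0346 for Smarce1 and 0.0498 for Arid2. At a mean of 5 CPM they were 0.0071 for Smarcc2, 0.0073 for Smarce1 and 0.0225 for Arid2. Arid2 was at 0.0068 with DESeq2 size factors and 0.0068 with the Wald test. Chd2 was at -0.0065 with no filter and -0.0016 with limma-voom. After thinning, Smarcd3 was at 0.0386, Arid2 at 0.0037 and Chd2 at -0.001. With 1 library left out, values ran from -0.0035 to 0.0734 for Smarca4, -0.0615 to 0.0311 for Smarcc2, -0.0835 to 0.0237 for Smarcd3, -0.1381 to 0.0082 for Arid1a, -0.016 to 0.003 for Arid2 and -0.0502 to 0.0545 for Chd2. The cause was not tested.

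With the replicate number as a block, members stayed at 1 higher and 3 lower, and other subunits were 4 higher and 4 lower against 6 and 5. All genes tested were at 5008 higher and 4796 lower with the block, against 5070 and 4879 of 13162. Deviations of same-numbered libraries correlated at 0.00263 over the genes tested. With 1 difference between libraries per group, this cannot show whether same-numbered libraries shared a culture or a preparation.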

Other observations

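Genes of Snf2-family ATPases outside SWI/SNF were read from the same fit. Of 27 listed, 26 had a row and all 26 were tested (Srcap was not analysed here), and 11 were called higher and 10 lower, near the 75.6% called among all genes tested. Their median log2 fold change was 0.04. Chd7, a CHD-family remodeler known from neural crest development, had 12.1 and 11.3 CPM in K36M libraries against 1.53 and 1.56 CPM in WT libraries, 7.57-fold higher (edgeR adjusted p = 4.79e-13). Smarca1 (SNF2L), an ISWI motor, had 7.16 and 7.23 CPM in K36M against 1.73 and 1.17 CPM in WT, 4.90-fold higher (edgeR adjusted p = 2.27e-10). Chd3, a motor of the NuRD complex, had 550.2 and 532 CPM in K36M against 186 and 196 CPM in WT, 2.84-fold higher (edgeR adjusted p = 8.04e-17), while its paralog Chd4 was not called (log2 fold change 0.07, adjusted p = 0.0911). Chd4 changed sign with the authors' factors, and was called higher with upper quartile scaling (edgeR adjusted p = 0.0112), total counts (0.00608), a mean of 5 CPM (0.0253) and without K36M replicate 2 (0.00172). Chd5, the third NuRD motor and mainly neuronal, had 9.21 and 9.24 CPM in K36M against 2.90 and 3.43 CPM in WT, 2.92-fold higher.

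Hells (LSH), needed for DNA methylation of repeats, had 84.9 and 91.9 CPM in K36M against 42.8 and 37.8 CPM in WT, 2.18-fold higher (edgeR adjusted p = 3.59e-12). In the other direction, Chd6 had 67.0 and 67.4 CPM in K36M against 165 and 167 CPM in WT, 2.47-fold lower (edgeR adjusted p = 2.19e-15). Smarcal1, which remodels stalled replication forks, had 27.6 and 29.4 CPM in K36M against 50.6 and 52.1 CPM in WT, 1.81-fold lower, and Atrx, which helps place H3.3 at repeats, had 182 and 194 CPM in K36M against 271 and 282 CPM in WT, 1.47-fold lower. These 8 largest called changes kept their calls under every alternative that tested them (Smarca1 was not tested at a mean of 5 CPM). Chd2, Chd4, Hltf, Shprh and Ttf2 were not called. Alternatives called Hltf lower with the authors' factors (edgeR adjusted p = 0.00831) and without K36M replicate 2 (0.039) and Shprh lower with the authors' factors (0.00615). Ttf2 was called higher with upper quartile scaling (edgeR adjusted p = 0.0237), total counts (0.0176), a mean of 5 CPM (0.0372) and without K36M replicate 1 (0.0109).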
